A study of Ovis aries with 91 samples.

Results

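The genes described here are 46 sheep genes whose RNA was higher in the left than in the right atrial appendage, the blind pouch of each upper heart chamber, both in pieces of whole tissue and in heart muscle cells isolated from it. They were chosen by the measured values themselves. A gene was selected when its left minus right difference in log2 CPM (CPM, read counts scaled to a common library size, here on a log2 scale) was above 0 in all 9 sheep of the whole tissue table and in all 9 sheep of the cardiomyocyte table, and averaged at least 0.4 in each. It also needed a mean log2 CPM of 0 or more in each table, and a change of under 0.8 between the paced and the control sheep. Of 12667 genes listed in both appendage tables, 48 met these limits, and 46 are described here. The mirrored limits were met by 59 genes higher on the right, which serve only as a comparison below.

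Atrial fibrillation was induced in the paced sheep with a tachypacing device placed in the right atrium. Control sheep (S3, S4 and C1), transition sheep and sheep in chronic fibrillation contributed left and right appendage samples from the same heart, 3 sheep per state in each table. Control sheep S3 and S4 are labelled sham. Sheep C1 has the condition label control. Its titles say sham for its right whole tissue samples and control for its other appendage samples. Whole tissue came from the 3 control sheep, from transition sheep D24, D27 and D30 and from chronic sheep D15, D16 and D19. Cardiomyocytes came from the same control sheep, from transition sheep D23, D24 and D27 and from chronic sheep D16, D19 and D20, so 7 sheep are in both tables. Another table holds whole tissue of the posterior left atrium, the wall around the openings of the pulmonary veins, from 6 control sheep (G21, G32, G36, S3, S4 and C1) and 6 transition sheep (G5, G13, G26, G34, D24 and D27), with no chronic sheep. The labels give no age, sex or pacing time, and the 4 transition sheep G5, G13, G26 and G34 are titled saline. The sheep of a posterior sample is the one its sheep label names. The posterior titles number the animals differently: G sheep are numbered as control or saline, and the titles of the other 5 samples carry S or T numbers. The sample titled S3 is labelled sheep C1.

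A left-sided programme of gene activity is switched on early in development and partly kept in the adult atrium. The left atrium receives the pulmonary veins and the right atrium the caval veins and the sinus node. Atrial fibrillation is often triggered from the muscle sleeves of the pulmonary veins, and differences between the atria in ion currents and structure are among the factors studied for where fibrillation is sustained. The genes here carry only Ensembl sheep identifiers, and none of the 13803 identifiers in the 3 tables matched the sheep gene table at hand. The genes are therefore given by identifier, with no statement on their function, and the tissue labels could not be set against marker genes.

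The whole tissue libraries held 6241967 to 22382458 listed reads and the cardiomyocyte libraries 5305524 to 12434418. The deposited values are not divided by gene length, so they are compared between samples for a gene and not between genes. The depth of the posterior left atrium samples is unknown. In that table the means of the G sheep and of the other sheep differed by a median of 0.052 over its 12141 genes, beside a fitted state change of 0.216 (absolute log2 values). A difference between the sets may thus have been removed before deposit, in which case the p-values from that table are too small, and this was not tested.

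The selected genes took up more of the left than of the right libraries in both preparations. In whole tissue they held 0.671% to 0.787% (median 0.735%) of listed reads in the 9 left libraries and 0.445% to 0.588% (median 0.543%) in the 9 right libraries. In cardiomyocytes the shares were 0.638% to 0.743% (median 0.685%) on the left and 0.405% to 0.559% (median 0.465%) on the right. The left and right ranges did not overlap in either preparation, which the selection favours. These shares are sums in which the genes with the most reads weigh most. In left whole tissue libraries ENSOARG00000008913 had a median of 14952 reads and ENSOARG00000003142 a median of 18. In whole tissue samples, fewer cells of a type and less RNA per cell cannot be told apart.

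The median left minus right difference of the 46 genes was 0.72 in whole tissue (quartiles 0.55 and 1.01, range 0.42 to 6.76), which is a 1.64-fold difference. In cardiomyocytes it was 0.73 (quartiles 0.57 and 1.01, range 0.41 to 5.80), or 1.66-fold. Over all genes with a mean log2 CPM of 0 or more the median was 0.01 in whole tissue (12333 genes) and 0.02 in cardiomyocytes (12279 genes). Most of the genes therefore differed by less than a doubling: 12 reached a difference of 1 or more in whole tissue, 12 in cardiomyocytes, 10 in both and 14 in either. A difference of 2 or more was reached by 4 genes, the same in both tables.

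With a test across all genes (limma, with the sheep as a random effect and Benjamini-Hochberg adjustment), 44 of the 46 genes passed an adjusted p of 0.05 in whole tissue, where 3.25% of all genes were called higher on the left, and all 46 passed in cardiomyocytes, where 11.7% were. These counts use the values that selected the genes and describe them only. A stricter description is that every left sample lay above every right sample whatever the sheep. This held for 4 of the genes in whole tissue, against 0.0811% of all genes, and for 8 in cardiomyocytes, against 0.138%. For the others the left and right samples overlapped between sheep, although left was above right within each animal. The difference of a selected gene had a median SD over sheep of 0.38 in whole tissue and 0.32 in cardiomyocytes, beside 0.34 and 0.30 over all genes.

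The scaling of the libraries bears on the size of these differences. With values divided by the plain library totals, the median left minus right difference of all genes moved to -0.11 in whole tissue and -0.06 in cardiomyocytes. The mean difference of all 46 genes stayed above 0 in both tables under that scaling and under quantile normalisation. It was above 0 in every sheep for 39 of them in whole tissue and 38 in cardiomyocytes with library totals, and for 44 in each with quantile normalisation. Only 26 genes met the selection limits on library totals, all of them among the 46.

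The limit of 0.4 is not a gap in the data, since 80 genes met every other limit. Just inside it were ENSOARG00000005028 (differences 0.61 in whole tissue and 0.41 in cardiomyocytes) and ENSOARG00000018039 (0.42 and 0.44). Just outside were ENSOARG00000004715 (0.48 and 0.40, the latter 0.3962 unrounded) and ENSOARG00000007244 (0.39 and 0.50).

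**Figure D1:**
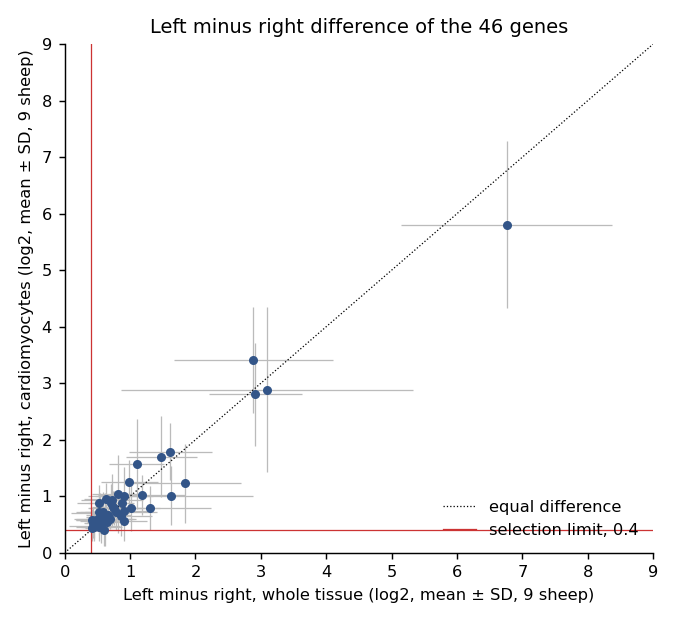
Left minus right difference of the 46 genes in whole tissue (x axis) and in isolated cardiomyocytes (y axis), both in log2 CPM; points are means and bars the SD over 9 sheep, the red lines mark the selection limit of 0.4 and the dotted line equal differences. Most genes sit between 0.4 and 1.5 near the dotted line, and 4 genes stand at 2 or more on both axes.

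The size of the difference in whole tissue went with the size in cardiomyocytes, gene by gene. Across the 46 genes Pearson's r was 0.968 and Spearman's rho 0.815, and without the 4 genes of the largest difference r was 0.767 (n = 42). The points share 7 sheep and a selection on both axes, so the coefficients are descriptions. For 36 of the 46 genes the means in the 2 preparations lay within 0.25 of each other, and 20 genes had the larger difference in whole tissue. Genes with a mean difference under 0.4 in either preparation could not be selected, so this closeness is partly set by the selection.

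The level of the genes in whole tissue against cardiomyocytes was compared in the 7 sheep with both. The tables were normalised separately, so the values are set beside those of all 11796 genes and not tested. In the left appendage the tissue minus cardiomyocyte difference of the selected genes had a median of 0.22 (range -0.47 to 0.96), and over all genes the median was 0.34 (quartiles 0.03 and 0.64). In the right appendage the median was 0.12 (range -0.85 to 1.10) against 0.36 over all genes (quartiles -0.01 and 0.70). On the left 5 of the selected genes lay above the upper quartile of all genes and 13 below the lower one, and on the right 8 and 13 did. By definition an equal share of all genes lies beyond each quartile. On both sides the count of selected genes below the lower quartile was near that share. The count above the upper quartile was under it, and this was not tested.

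The 4 genes with a difference of 2 or more in both tables were named after their values were seen. ENSOARG00000003437 had the largest difference. In whole tissue its left samples ran from 3.49 to 5.31 log2 CPM and its right samples from -4.08 to -0.50. In counts this was 84 to 278 reads per left library and 0 to 5 reads per right library. In cardiomyocytes the left samples held 100 to 446 reads (3.81 to 5.05 log2 CPM, median 4.36) and the right samples 0 to 9 reads (-3.94 to -0.03, median -0.63).

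Every left sample of ENSOARG00000003437 was thus far above every right sample, and the right side was at the edge of detection at this depth. Its mean difference was 6.76 ± 1.61 in whole tissue and 5.80 ± 1.47 in cardiomyocytes (SD, n = 9 each). The right samples spread more (SD 1.36 in each table) than the left ones (SD 0.59 in tissue and 0.40 in cardiomyocytes). Because the deposited values add an offset of 0.5 reads, the size of this fold depends on the offset where a right library holds few reads.

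On the left, ENSOARG00000003437 was lower in the chronic sheep. In whole tissue it was 3.65, 3.49 and 3.84 in chronic sheep D15, D16 and D19, and 4.36, 4.56 and 5.31 in control sheep S3, S4 and C1. Cardiomyocytes gave 3.81, 3.95 and 3.88 in chronic sheep D16, D19 and D20 and 4.52, 4.63 and 5.05 in S3, S4 and C1. Chronic and control samples did not overlap in either preparation, and the transition samples (4.26 to 4.93 in tissue, 4.27 to 4.50 in cardiomyocytes) lay between or within the control range. The left side alone was not tested, since a limit on the paced change was part of the selection. How many of all genes were apart in this way was not counted. Sheep S3, S4, C1, D16 and D19 gave both preparations, so these are not independent.

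ENSOARG00000012147 came next by the average of both tables, with a mean difference of 2.88 ± 1.22 in whole tissue and 3.41 ± 0.93 in cardiomyocytes. Its left tissue samples ran from 2.90 to 6.28 (median 5.59) and its right samples from 0.01 to 3.62 (median 2.71). The left sample of transition sheep D24 was the lowest and fell within the range of the right samples of other sheep, yet was still above the right sample of D24 by 1.02. In cardiomyocytes left (3.82 to 6.01, median 4.70) and right (0.83 to 2.74, median 1.21) did not overlap.

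ENSOARG00000018398 had differences of 3.10 ± 2.23 in whole tissue and 2.89 ± 1.46 in cardiomyocytes, with the widest spread over sheep of the 4 genes in tissue. ENSOARG00000006037 had differences of 2.91 ± 0.71 and 2.80 ± 0.91. Its left tissue samples ran from 2.60 in C1 to 4.33 in S3, and its right samples from -0.42 in D24 to 1.94 in D16, with no overlap. In cardiomyocytes the left sample of D27 (2.06) was below the right sample of D16 (2.22), so the groups overlapped there.

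**Figure D2:**
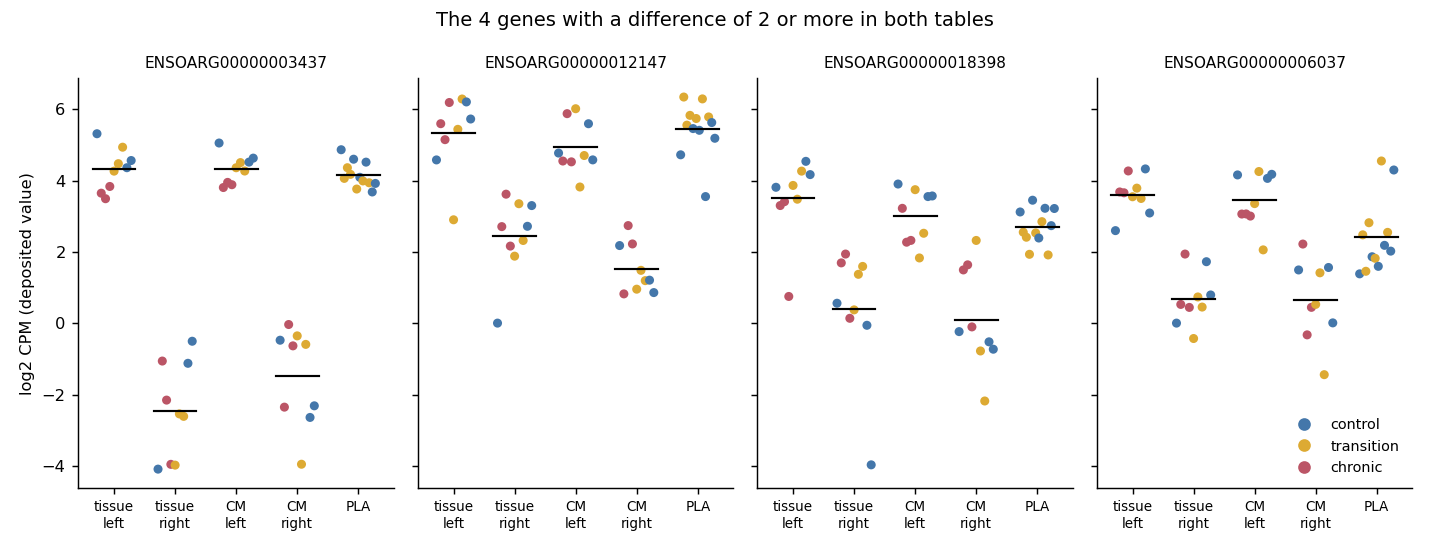
Deposited log2 CPM (y axis) of the 4 genes with a difference of 2 or more in both tables, by preparation and region (x axis; CM, cardiomyocytes; PLA, posterior left atrium); each point is 1 sheep, coloured by state, and the bar is the mean. For ENSOARG00000003437 the left and posterior samples lie at 3.49 or above and every right sample lies below 0.

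The genes with the most reads differed by less. ENSOARG00000008913 ran from 10.68 to 11.56 on the left and 9.74 to 10.86 on the right in whole tissue, and from 10.72 to 11.14 and 9.59 to 10.62 in cardiomyocytes. The groups overlapped in tissue and were apart in cardiomyocytes. ENSOARG00000003074 ran from 9.77 to 10.64 on the left and 9.43 to 10.11 on the right in tissue, and from 9.37 to 10.15 and 8.999 to 9.775 in cardiomyocytes, with overlap in both. For genes of few reads the precision is lower: 7 of the 46 genes had under 10 reads in at least 1 right library of whole tissue and 9 in cardiomyocytes.

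The left minus right difference was next set against the state of the sheep. A gene whose gap closed or reversed in any sheep could not be selected, so the changes below are not independent of the selection and are read only as a description of these genes. In whole tissue the difference was narrower in the chronic sheep. Its median over the 46 genes was 0.83 in control, 0.77 in transition and 0.58 in chronic sheep, and 26 genes had their widest mean difference in control sheep, 15 in transition and 5 in chronic. Sheep by sheep, the median was 0.70 in S3, 0.997 in S4 and 0.91 in C1, then 0.76 in D24, 0.92 in D27 and 0.70 in D30, and 0.62 in D15, 0.47 in D16 and 0.59 in D19. All 3 chronic sheep were below the 6 others, and the same held with library totals and with quantile normalisation. With library totals the transition median (0.72) was above the control median (0.67).

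In cardiomyocytes the chronic sheep did not stand together. The medians were 0.74 in S3, 0.82 in S4 and 0.64 in C1, then 0.80 in D23, 0.73 in D24 and 0.57 in D27, and 0.84 in D16, 0.90 in D19 and 0.52 in D20. D16 had the narrowest differences in whole tissue and the second widest in its cardiomyocytes. The state medians were 0.74 in control, 0.72 in transition and 0.81 in chronic sheep. With library totals they were 0.73, 0.67 and 0.63, so that the chronic median was the lowest.

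**Figure D3:**
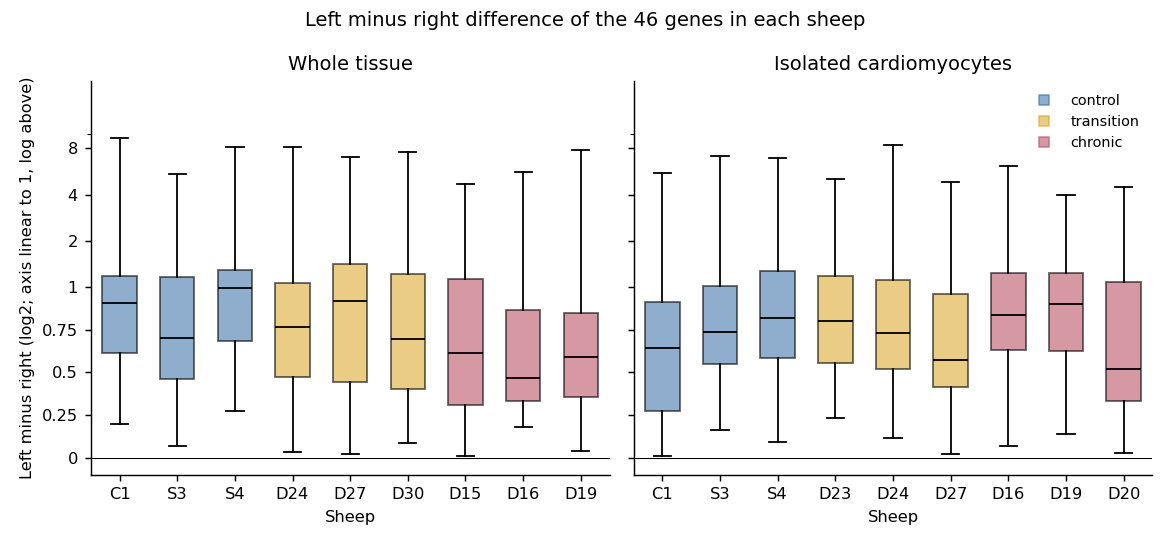
Left minus right difference in log2 CPM (y axis, linear up to 1 and logarithmic above) of the 46 genes in each sheep (x axis) for whole tissue and isolated cardiomyocytes; boxes show the quartiles and median, whiskers the full range, and colour the state. In whole tissue the medians of the 3 chronic sheep (0.47 to 0.62) are below those of the other 6 (0.70 to 0.997), and in cardiomyocytes the states overlap.

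Gene by gene, no change of the difference passed the test. For chronic minus control in whole tissue the change was below 0 for 36 of the 46 genes, with a median of -0.23 beside -0.02 over all genes. None of the 46 was called and none of all genes (0%), with 5 of the 46 (10.9%, beside 6.61% of all genes) at an unadjusted p under 0.05 and 0 called by voom on the recovered reads. The median standard error was 0.34 in whole tissue, so a narrowing of the size of the median could not be detected for a single gene. The genes higher on the right had a median change of 0.22 in the same contrast, which for them also is towards a smaller gap. In cardiomyocytes their median chronic minus control change was -0.36, towards a wider gap. Both sets were selected on their gap over these same sheep.

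For transition minus control in whole tissue, 0 of the 46 genes were called (0.0243% of all genes), with a median of -0.04. At an unadjusted p under 0.05 there were 4 of the 46 (8.70%, beside 7.5% of all genes), and voom called 0. In cardiomyocytes 0 were called for transition minus control (0% of all genes) and 0 for chronic minus control (0.358%), by limma and by voom, with medians of 0.03 in each. At an unadjusted p under 0.05 there were 1 (2.17%, beside 6.36% of all genes) and 4 (8.70%, beside 14.2%), lower shares than over all genes. The median standard error was 0.25 there. The cardiomyocyte change in chronic sheep was below 0 for 20 of the 46 genes, for 24 with quantile normalisation and for 33 with library totals, so the side of the majority turned with the scaling.

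The change with the smallest adjusted p for chronic minus control belonged to ENSOARG00000018398 in both preparations. In whole tissue its left samples were 4.54, 4.17 and 3.81 in control sheep S3, S4 and C1 and 3.30, 3.41 and 0.76 in chronic sheep D15, D16 and D19. Its right samples were -0.05, -3.96 and 0.57 in S3, S4 and C1 and 1.70, 1.94 and 0.14 in D15, D16 and D19. The chronic sheep were lower on the left without overlap, while on the right the 2 groups overlapped and S4 had no read at all.

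In cardiomyocytes the left samples of ENSOARG00000018398 were 3.55, 3.57 and 3.90 in S3, S4 and C1 and 3.22, 2.28 and 2.33 in D16, D19 and D20. The right samples were -0.51, -0.72 and -0.23 in S3, S4 and C1 and 1.499, 1.64 and -0.10 in D16, D19 and D20. Here the chronic sheep were lower on the left and higher on the right, each without overlap. The share of all genes without such overlap was not counted, and S3, S4, C1, D16 and D19 gave both preparations. The difference changed by -4.09 ± 1.08 (SE) in whole tissue and -2.57 ± 0.81 in cardiomyocytes, and the limma adjusted p was 0.441 and 0.168. In tissue the change was -2.69 without sheep S4, and with a pseudocount of 10 CPM it was -0.97 in tissue and -0.68 in cardiomyocytes. The cardiomyocyte adjusted p was 0.0472 without transition sheep D23 and 0.0461 with sample quality weights. Transition sheep D23 itself had 3.75 on the left and 2.32 on the right.

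The smallest adjusted p of the other contrasts was 0.341 for ENSOARG00000018989 in whole tissue, whose difference changed by 0.50 ± 0.14 in transition sheep. In cardiomyocytes it was 0.755 for ENSOARG00000008913, at -0.42 ± 0.17 (-0.25 without sheep S4).

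Chronic sheep were also compared with transition sheep, averaging both sides, a contrast the selection had not used. In whole tissue 0 of the 46 genes were called (0.114% of all genes), with 9 of the 46 (19.6%, beside 10.8% of all genes) at an unadjusted p under 0.05 and 0 called by voom. In cardiomyocytes 0 were called (0.0244%), also with 9 (19.6%, beside 8.32%) at an unadjusted p under 0.05 and 0 by voom. The medians were 0.02 and -0.04. The smallest adjusted p was 0.170 for ENSOARG00000014361 in whole tissue (-0.86 ± 0.23) and 0.340 for ENSOARG00000020760 in cardiomyocytes (-0.83 ± 0.23, or -0.46 with a pseudocount of 10 CPM).

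Set apart by side, the whole tissue values moved on the right more than on the left. The median chronic minus control change of the 46 genes was 0.03 on the left (24 genes above 0) and 0.26 on the right (34 above 0). The transition minus control medians were 0.14 on the left and 0.21 on the right. The corresponding medians over all genes were between -0.01 and 0.01. In cardiomyocytes the 4 medians of the 46 genes lay between -0.03 and -0.01. These side by side values share the control sheep, and the paced change entered the selection, so they are descriptions.

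The posterior left atrium, which took no part in the selection, showed on which side of the appendage difference a left atrial wall region lay. Of the 46 genes 45 are in its table. In the 5 sheep with all 3 regions, and after removing the median shift of -0.15 between the tables, the posterior level was nearer the left appendage for 33 of the 45 genes (73.3%). It was nearer the left for 60.3% of all 11704 genes and for 46 of 53 genes (86.8%) of the right-higher set. The selected genes were thus on the left side of the midpoint more often than not, as were genes at large, and the tables were normalised separately. The median posterior level was 0.18 below the left appendage (a difference of -0.18) and 0.68 above the right.

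The posterior level was above the left appendage for 15 genes and below the right for 6, and 18 genes were nearer the left in each of the 5 sheep. Of the 11 genes with a tissue difference of 1 or more 9 were nearer the left, and of the 34 with a smaller one 24 were. The shares of all genes for these counts were not counted. The G sheep gave no appendage sample, so their posterior mean was set against the appendage means of the 9 whole tissue sheep, after a shift of -0.15. It was nearer the left for 32 of the 45 genes (71.1%) and for 45 of 53 genes (84.9%) of the right-higher set. The share over all genes was not counted there, and the 9 sheep are those that selected the genes. Among the genes named above, ENSOARG00000003437 stood at 4.32 in the posterior wall, 4.59 in the left and -2.44 in the right appendage of the 5 sheep. ENSOARG00000012147 was higher in the posterior wall (5.63) than in the left appendage (4.97). ENSOARG00000018398 and ENSOARG00000006037 were lower there than on the left, by differences of -1.02 and -0.99, and still above the right by 3.29 and 1.91.

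**Figure D4:**
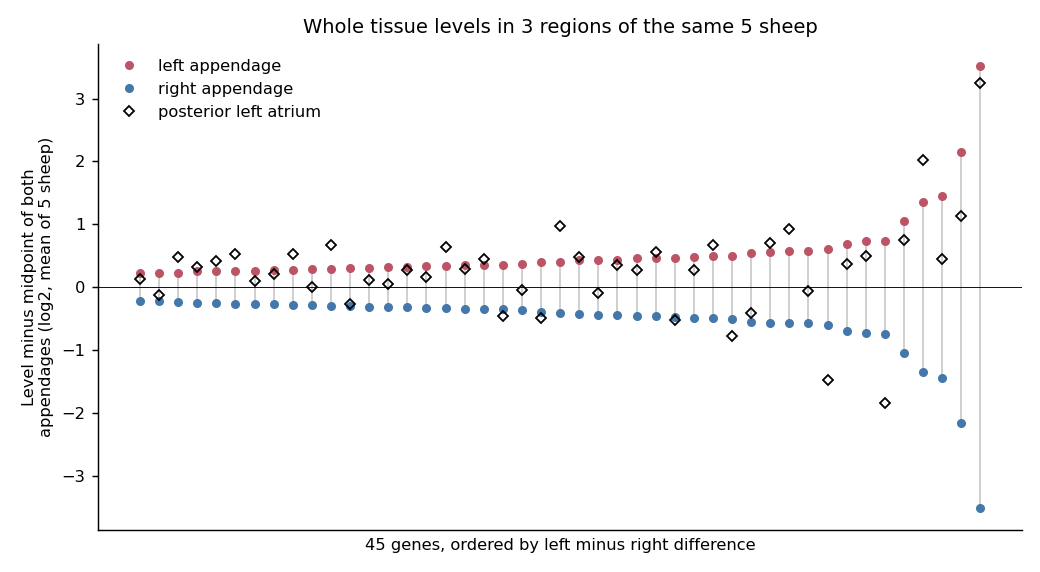
Mean level of 45 genes in the left appendage, right appendage and posterior left atrium of the same 5 sheep, in log2 CPM relative to the midpoint of the 2 appendages (y axis), with genes ordered by their left minus right difference (x axis); posterior values are shifted by the median difference between the tables. The posterior level is above the midpoint for 33 of the 45 genes, above the left appendage for 15 and below the right for 6.

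Genes were called in both directions when transition and control sheep were compared in the posterior left atrium. Between transition and control sheep (limma, with the set of sheep, G or other, as a term), 12 of the 45 genes rose, where 8.84% of all genes were called higher, and 3 fell, where 8.68% were called lower. The other 30 did not pass an adjusted p of 0.05. The share called was 33.3% of the 45 genes, 26.7% higher and 6.67% lower, and 17.5% of all 12035 genes. The median change was 0.22, beside -0.01 over all genes and -0.37 over 53 genes of the right-higher set.

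The 12 genes that rose did so by 0.31 to 0.96 (1.24 to 1.95-fold, median 0.63). All 12 were above 0 both in the G sheep (4 transition, 3 control) and in the S, C and D sheep (2 transition, 3 control), and the 3 that fell were below 0 in both. The calls were made on both sets together, which favours an equal sign in each. Over all 45 genes 35 had the same sign in both sets, and the share over all genes was not counted. Every transition sample was above every control sample for 4 of the 45 genes (8.89%), against 4.28% of all genes, and below for 2 (4.44%), against 3.28%. The number of genes called higher was 7 without any 1 of sheep D24, D27, G5, G32, G36 or S3, and 6 without G26. Without D24 the calls were 7 higher and 2 lower, the fewest in all for any sheep left out. They were 7 and 2 in the G sheep alone and 0 in the 5 S, C and D sheep alone, and quantile normalisation gave 9 and 4.

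ENSOARG00000012147, one of the 4 genes of widest appendage difference, had the largest rise among the called genes. Its control samples ran from 3.55 to 5.62 (median 5.29) and its transition samples from 5.55 to 6.34 (median 5.80), which overlapped. The means were 4.99 ± 0.77 and 5.92 ± 0.32 (SD, n = 6 each), and the change was 0.96 ± 0.30 (SE, limma adjusted p = 0.0373). The call was lost in 9 of 20 alternative fits, among them those without sheep C1, D24, G5, G13, G26, G34 or S4, where the adjusted p was at most 0.0959. Without sheep G36, the lowest control, the change was 0.61.

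ENSOARG00000003270 rose by 0.86 ± 0.25 (limma adjusted p = 0.0287). Its control samples ran from 2.68 to 3.95 (median 3.55) and its transition samples from 3.51 to 4.73 (median 4.29). The groups overlapped, with sheep G36 lowest and G34 highest. This call was also lost in 9 of 20 alternatives, among them the fits without D24, D27, G5, G26, G32, G36 or S3.

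The 3 genes that fell are named after their values were seen. ENSOARG00000012134 ran from 3.73 to 4.43 (median 4.15) in control and from 2.77 to 3.61 (median 3.11) in transition sheep, without overlap. This was a change of -1.02 ± 0.17 (2.03-fold lower, limma adjusted p = 0.00146). ENSOARG00000008475 ran from 4.95 to 5.63 (median 5.09) in control and from 4.22 to 4.81 (median 4.39) in transition sheep, also without overlap (-0.79 ± 0.15, limma adjusted p = 0.00281). ENSOARG00000011447 fell by 0.66 on the log2 scale (SE 0.17, limma adjusted p = 0.0199). Its control samples ran from 2.80 to 3.59 (median 3.18) and its transition samples from 2.15 to 2.83 (median 2.51), with a narrow overlap. The call was lost for ENSOARG00000011447 without D24 (limma adjusted p = 0.0574), in the G sheep alone (0.1998) and in the S, C and D sheep alone (0.185). With a pseudocount of 10 CPM the changes were -0.56 for ENSOARG00000012134 and -0.27 for ENSOARG00000011447, and 0.49 for ENSOARG00000003270.

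In the 7 G sheep alone, an exact permutation test over sheep (two-sided, 4 against 3) cannot give a p below 0.0571. It gave 0.0571 for ENSOARG00000012147 and for each of the 3 genes that fell, and 0.114 for ENSOARG00000003270. Adjusted over the 5 genes these exact values were 0.0714 and 0.114. The 5 genes were picked from the 45 by a fit that included these same G sheep. The exact values are therefore descriptions and no separate support.

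The appendage tissue of the transition sheep gave values of the same sign for most of these genes. Of the 12 genes that rose in the posterior wall, 11 were above 0 in the left and 12 in the right appendage tissue (medians 0.36 and 0.51). Of all 46 selected genes 27 were above 0 on the left and 30 on the right, and the share over all genes was not counted. Of the 3 that fell, 3 were below 0 on the left and 2 on the right. The exception among the risers was ENSOARG00000012147, with -0.63 on the left and 0.51 on the right. Sheep D24 and D27 and the 3 controls S3, S4 and C1 are in both tables, so these values are not independent of the posterior ones. In cardiomyocytes of the transition sheep fewer of the 12 genes were above 0 than in tissue, and fewer on the right than on the left.

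**Figure D5:**
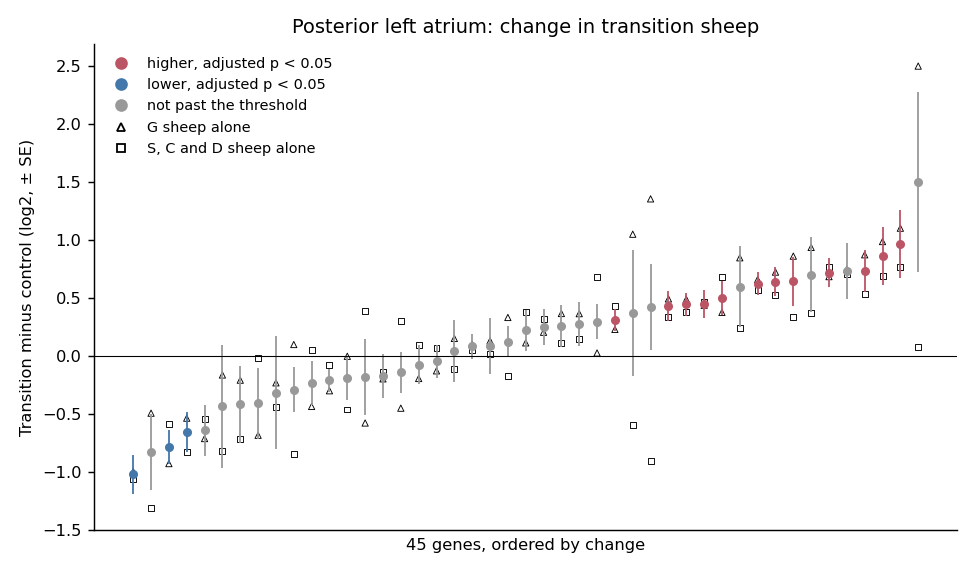
Transition minus control change in the posterior left atrium in log2 CPM (y axis) of 45 genes ordered by size (x axis); filled points with bars are the fitted change ± SE, coloured by the limma call, and open triangles and squares are the change in the G sheep and in the S, C and D sheep alone. The 12 genes called higher lie between 0.31 and 0.96 and the 3 called lower between -1.02 and -0.66. Each has both sets of sheep on the same side of 0, which a call on both sets together favours.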

How the data were processed

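RNA was sequenced from sheep atria, in 91 samples, with technical replicates of a sheep and region merged into 1 column of the deposited tables. The deposited values are log2 CPM, made by the authors with bcl2fastq, cutadapt, RSEM and limma per the submitters' processing notes. For versions, aligner and genome build: not given in the sources used here. Reads were recovered from both appendage tables: 100% of values were whole within 0.05 reads, after an offset of 0.5 reads and a scaling factor per library (0.828 to 1.14).

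Every column was tied to a sample through the sample title that holds its name (0 left over), and to a sheep through the sheep label of that sample. The comparison in 5 shared sheep rests on these labels. Genes with a mean log2 CPM of 0 or more were tested with limma 3.58.1 (R 4.3.3; trended variance, 6 group means, 0.05 after Benjamini-Hochberg adjustment over the table). The left and right samples of a number come from 1 sheep, with a consensus correlation of 0.294 in tissue and 0.470 in cardiomyocytes. For the posterior left atrium the set of sheep was a term. The scripts were tested on simulated data.

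The members, gene lists and tests were chosen with earlier results of these data known. Lists of genes and cell markers could not be used, as no identifier matched a name. Named genes are the 2 widest, the 2 with the most reads, the 2 on either side of the limit, in each tested contrast the smallest adjusted p where none passed, and the 2 largest called changes per direction. Exceptions are marked in the text. Alternatives were other scalings, filters, pseudocounts, weights, sheep terms and each sheep left out.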

Additional observations from a re-analysis of the deposited data

Results flagged for a closer look

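Outlying samples were looked for only in the posterior left atrium, for named genes, in control and transition sheep apart. Of 20 groups of 6 samples, 2 held a sample whose gap to its nearest neighbour exceeded the 95% critical value of Dixon's test (0.625 for 6 samples). Chance gives about 1 in 20. Both were the posterior left atrium of control sheep S4. ENSOARG00000006037 was 4.296 log2 CPM there, with the next sample at 2.19 and the lowest at 1.39 (gap 0.725 of the range). ENSOARG00000008913 was lowest there at 10.8, with the next at 11.18 and the highest at 11.35 (gap 0.686 of the range). Neither gene was called in the posterior left atrium.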

How the results depend on the processing

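The rule gave 37 to 65 genes under the other limits, filters and quantile normalisation, 42 to 58 with a sheep left out and 26 with library totals. The members changed more than these totals show. With a sheep left out, 37 (without C1, of 50 selected) to 44 (without D19, D20 or D30) of the 46 genes remained. Under quantile normalisation 39 remained, of 52 selected. For the appendage pairs, the fit without the sheep block called 35 of the 46 genes in whole tissue and 34 in cardiomyocytes, and the fit with sheep as fixed block terms called 46 in each. The block changed no other call. In whole tissue, sample quality weights called 2 genes lower in chronic than in transition sheep. For the chronic change of the cardiomyocyte difference, a pseudocount of 10 CPM called 1 gene, sample quality weights 1, and leaving out a sheep 0 to 1 (1 without D20 and 1 without D23, of opposite direction). The remaining interaction and chronic minus transition counts were 0 under every alternative run. In the posterior left atrium the 15 calls became 9 in the G sheep alone, 0 in the S, C and D sheep alone, and 9 to 15 with a sheep left out (9 without D24). Quantile normalisation gave 13, of which 9 higher, and weights, a pseudocount of 10 CPM or no term for the set gave 17 each. ENSOARG00000012134 and ENSOARG00000008475 lost their calls only in the S, C and D sheep alone (adjusted p 0.0754 and 0.126). ENSOARG00000014361 gained one with weights (adjusted p 0.0255). No direction was reversed. The causes were not tested. Read depth limits the genes with few right-side reads.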
